A study of Mus musculus with 4 samples.

Results

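Type I interferon-stimulated genes were examined as a list of 45 genes, chosen by name and matched through GENCODE symbols to the Ensembl identifiers of the deposited tables. All 45 were found among the 52636 genes measured. RNA had been sequenced from dissociated corpus callosum, a large white matter tract, of Mertk_KO mice given chow with 0.2% cuprizone for 4 weeks. Cuprizone is a copper chelator that kills oligodendrocytes, and Mertk encodes a receptor kinase with which phagocytes take up dying cells. There were 4 libraries: 2 of AnnexinV-positive cells, described as dying, and 2 of AnnexinV-negative cells, described as living. Annexin V binds phosphatidylserine exposed on the surface of dying cells. The 2 groups therefore share the genotype, the diet and the time point and differ in annexin V. No wild-type and no untreated library is among them, with age, sex, strain background, the way cells were separated and any pooling of animals not given in the sources used here. Nothing states that replicates are different animals. The p-values therefore reflect the spread of these 4 libraries alone, and that spread may be technical.

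Type I interferons bind a receptor made of the chains Ifnar1 and Ifnar2. The kinases Jak1 and Tyk2 then act on STAT proteins, among them Stat2, which joins Irf9 in the complex ISGF3, and this complex binds the interferon-stimulated response element in the promoters of target genes. The products sense or degrade viral RNA and DNA, block translation and virus entry, attach the ubiquitin-like Isg15 to proteins and feed back on the pathway. In brain white matter, microglia, the resident macrophages, are known to express many of these genes, and astrocytes, endothelial cells and oligodendrocytes can also induce them.

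The values are RPKM, read counts scaled by gene length and by a factor per library. Levels can thus be compared between genes per length. That factor did not follow the depth given next. A read per kilobase was worth 0.0101 and 0.0116 RPKM in AnnexinV-positive replicates 1 and 2, against 0.00833 and 0.0103 in AnnexinV-negative ones. Among genes above 0 in every library, the median log2 ratio to their geometric mean was 0.0289 in each library. The deposited scale thus sets this median equal between libraries. The recovered depth, as megareads in genes, was 67.5 and 60.1 for replicates 1 and 2 of the AnnexinV-positive group, against 50.5 and 43.3 for those of the AnnexinV-negative group. Each member had between 259 and 29469 reads in every library. Mertk, the deleted gene, was read in every library (RPKM of 62.6 and 53.6 in AnnexinV-positive libraries 1 and 2, against 18.8 and 29.9). Such gene-wide values cannot check the genotype, since exons outside the deletion are counted too. Pairs of values below follow this order. The groups differed in the RNA of cell type markers. All 15 tested markers of mature oligodendrocytes fell, with a median log2 fold change of -4.57, and all 14 markers of homeostatic microglia rose, with a median of 1.20. All 12 genes of a general myeloid list rose as well, with a median of 1.27. In the bulk samples, fewer cells of a type and less RNA per cell cannot be told apart.

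Promoter stretches of 7 members are shown for the letters of the response element, which 6 of them hold. RefSeq promoter windows (GRCm38.p6, 250 bases before to 50 after a start site) were found for 34 of the 45 members, in 40 windows. The core of the response element was searched as GAAANNGAAA on both strands, so that it can also read TTTCNNTTTC. It was found in 17 of these 40 windows (42.5%), belonging to 16 members, and in 3.44% of the 32851 windows of all genes. Each line gives the 200 bases before the start site, 5′ to 3′ on the gene's strand, with matches in capitals.
Isg15: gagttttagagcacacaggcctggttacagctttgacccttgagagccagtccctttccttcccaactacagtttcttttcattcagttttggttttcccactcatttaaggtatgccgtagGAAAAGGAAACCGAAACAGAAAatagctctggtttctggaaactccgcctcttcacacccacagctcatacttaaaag
Oas1a: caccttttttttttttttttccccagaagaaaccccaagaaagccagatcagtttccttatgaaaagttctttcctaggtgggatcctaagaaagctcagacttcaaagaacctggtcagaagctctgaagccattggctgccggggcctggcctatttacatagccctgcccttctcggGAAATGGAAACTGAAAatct
Bst2: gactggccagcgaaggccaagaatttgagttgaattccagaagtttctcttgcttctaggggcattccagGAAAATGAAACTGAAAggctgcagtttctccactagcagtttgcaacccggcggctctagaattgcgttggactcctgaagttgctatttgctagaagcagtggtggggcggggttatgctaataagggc
Rsad2: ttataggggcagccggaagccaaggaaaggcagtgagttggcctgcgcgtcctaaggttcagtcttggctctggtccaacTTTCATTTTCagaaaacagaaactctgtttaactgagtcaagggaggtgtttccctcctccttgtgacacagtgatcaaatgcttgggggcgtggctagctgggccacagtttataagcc
Ifit3: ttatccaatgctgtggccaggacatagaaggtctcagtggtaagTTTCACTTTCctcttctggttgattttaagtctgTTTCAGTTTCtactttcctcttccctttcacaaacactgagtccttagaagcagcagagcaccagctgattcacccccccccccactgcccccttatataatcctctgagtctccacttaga
Ifit3b: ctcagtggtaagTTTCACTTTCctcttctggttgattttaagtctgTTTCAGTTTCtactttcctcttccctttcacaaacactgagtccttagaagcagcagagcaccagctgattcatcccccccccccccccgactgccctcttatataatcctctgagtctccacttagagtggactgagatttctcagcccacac
Slfn2: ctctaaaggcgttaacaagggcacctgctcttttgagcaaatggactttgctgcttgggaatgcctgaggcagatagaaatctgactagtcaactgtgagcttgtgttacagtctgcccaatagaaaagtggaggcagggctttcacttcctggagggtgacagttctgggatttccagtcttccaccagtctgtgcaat
They lie at chr4:156200819-156201018, minus strand (Isg15), chr5:120907526-120907725, minus strand (Oas1a), chr8:71537473-71537672, minus strand (Bst2), chr12:26456453-26456652, minus strand (Rsad2), chr19:34583329-34583528, plus strand (Ifit3), chr19:34607757-34607956, plus strand (Ifit3b) and chr11:83064912-83065111, plus strand (Slfn2), and no base of them falls in an annotated exon of GENCODE vM21. Isg15 held 3 overlapping matches, with first bases at -78, -72 and -66 from the start. Oas1a held 2 overlapping matches at -20 and -14, and Bst2 2 at -130 and -124. Rsad2 held 1 match at -120. Ifit3 and Ifit3b, neighbouring copies, held 2 matches each, spaced alike, and shared an identical run of 119 bases. Slfn2 is shown as a strongly changed member whose stretch holds no match to these letters.

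The element that interferon-gamma signalling uses, searched as TTCNNNGAA, which reads the same on both strands, was found in 11 of the 40 member windows (27.5%), 1 in each of 11 members, and in 8.30% of all windows. In Bst2 and Ifitm3 it overlapped a match of the first motif. Ifi35, Ifit2, Ifnar1, Ifnar2, Irf1, Isg20 and Samhd1 held it without the first motif. The 16 members with GAAANNGAAA had a median log2 fold change of 1.04 between AnnexinV-positive and AnnexinV-negative libraries, as had the 18 without it (1.04). In each set 15 members were called higher on the deposited scale, as were 30.8% of all genes tested. The matches are letters in a window and were not tested for binding.

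**Figure D1:**
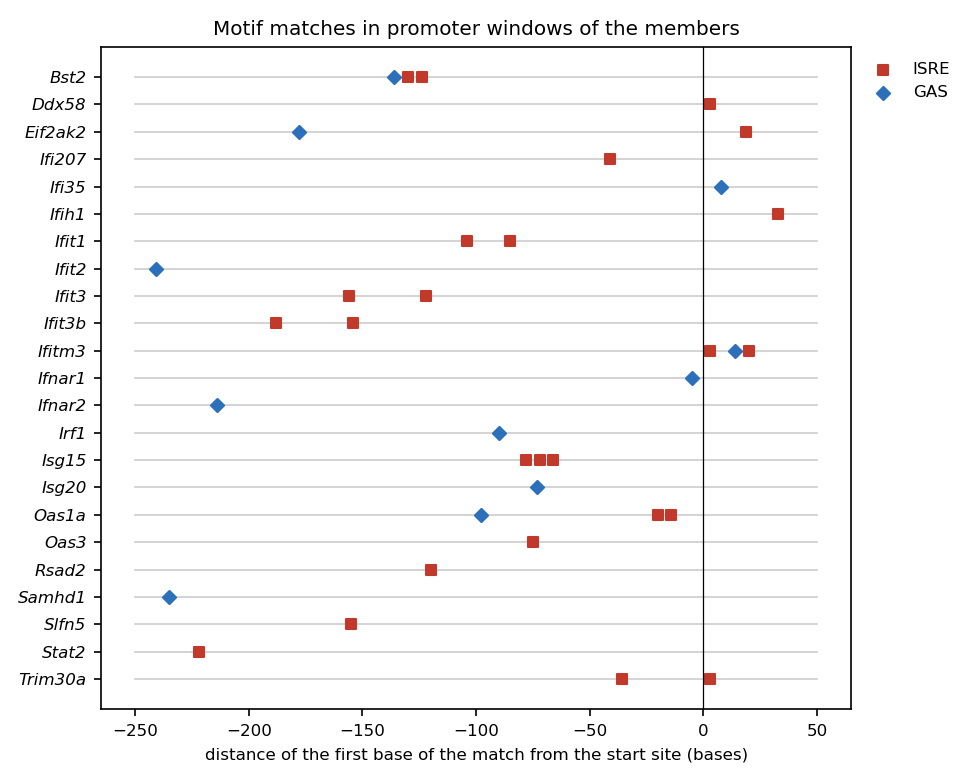
Matches to GAAANNGAAA (ISRE, red squares) and TTCNNNGAA (GAS, blue diamonds) in RefSeq promoter windows of the members that held at least 1 match, by distance of the match's first base from the start site in bases. Isg15 holds 3 neighbouring red matches and Bst2 a blue match beside 2 red ones.

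On the deposited scale 39 of the 45 members rose in AnnexinV-positive cells, 0 fell and 6 did not pass the test (limma on log2(RPKM + 0.1), Benjamini-Hochberg adjusted p under 0.05 over the 10927 genes tested; at an unadjusted p under 0.05, 43 were higher and 0 lower). Of all genes tested, 30.8% were called higher and 9.26% lower. The median log2 fold change of the members was 1.04, with a range of 0.36 to 1.49, beside 0.45 for all genes tested. As ratios of mean RPKM, the members ran from 1.31 (Ifi44) to 2.83 (Ifi204). Oas2 and Oas3 reached the RPKM minimum only through the AnnexinV-positive libraries, where they are higher. With an RPKM of at least 1 asked of all 4 libraries both drop out, and 40 of the 43 members left rose. In 44 of 45 members both AnnexinV-positive libraries lay above both AnnexinV-negative ones, which held for 60.9% of all genes tested, and Ifi27l2a was the exception. With libraries rescaled to equal sums (TPM scale) the median of the members was 0.31, against -0.32 for all genes, and Slfn2 and Ifi204 alone rose (1.03% of all genes were called higher there). On that scale 5 members turned below 0, and the AnnexinV-positive libraries lay apart on the higher side in 25 members and on the lower side in 1, Ifi44 (12.2% and 52.1% of all genes). Without AnnexinV-positive replicate 2 the count of 39 became 22.

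Markers of other cells moved with these calls, and their part in them was not tested. The 14 homeostatic microglia markers summed to an RPKM of 5609 and 5577 against 2182 and 2678. The 45 members summed to 937 and 1184 against 521 and 477. Mature oligodendrocyte markers summed to 103 and 87.4 against 1105 and 620, with Mobp at an RPKM of 0.196 and 0.149 against 22.4 and 13.5. Of the 10 border macrophage markers 3 were tested and all 3 rose, while the whole list summed to 18.1 and 17.9 against 7.08 and 5.88. Of 8 monocyte markers 5 were lower in both AnnexinV-positive libraries and 0 higher, and of 8 neutrophil markers 5 were lower and 1 higher. Without overlap in this way, 14.9% of all genes tested were lower and 60.9% higher. Of the monocyte markers 1 reached the RPKM minimum, and of the neutrophil markers 3. The 10 T or NK cell markers summed to 2.69 and 4.09 against 9.61 and 4.44. Of these 10 markers 5 were lower in both AnnexinV-positive libraries, among them Trac at 0.0245 and 0.0844 against 1.01 and 0.2998, 4 overlapped, and Klrb1c was higher, at 1.24 and 0.940 against 0.557 and 0.647. Of 7 markers of plasmacytoid dendritic cells, which are known for making interferon, 2 were tested and both rose, Cox6a2 and Pacsin1. The whole list summed to 16.7 and 27.8 against 8.77 and 11.3, most of it from these 2 genes. Cox6a2 was at 11.8 and 22.2 against 5.69 and 8.13, and Pacsin1 at 3.82 and 4.47 against 1.70 and 1.89. The highest value of the other markers was 0.653, for Ccr9 in AnnexinV-positive library 1. Ly6d went the other way, at 0.0136 and 0 against 0.313 and 0.499, and Klk1 was listed at 0 in 3 libraries and at 0.0262 in AnnexinV-negative library 1. These single markers were picked after their values were seen. Astrocyte markers fell in 9 of 11 genes, with a median log2 fold change of -1.27, and summed to 35.2 and 51.8 against 108 and 77.7.

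**Figure D2:**
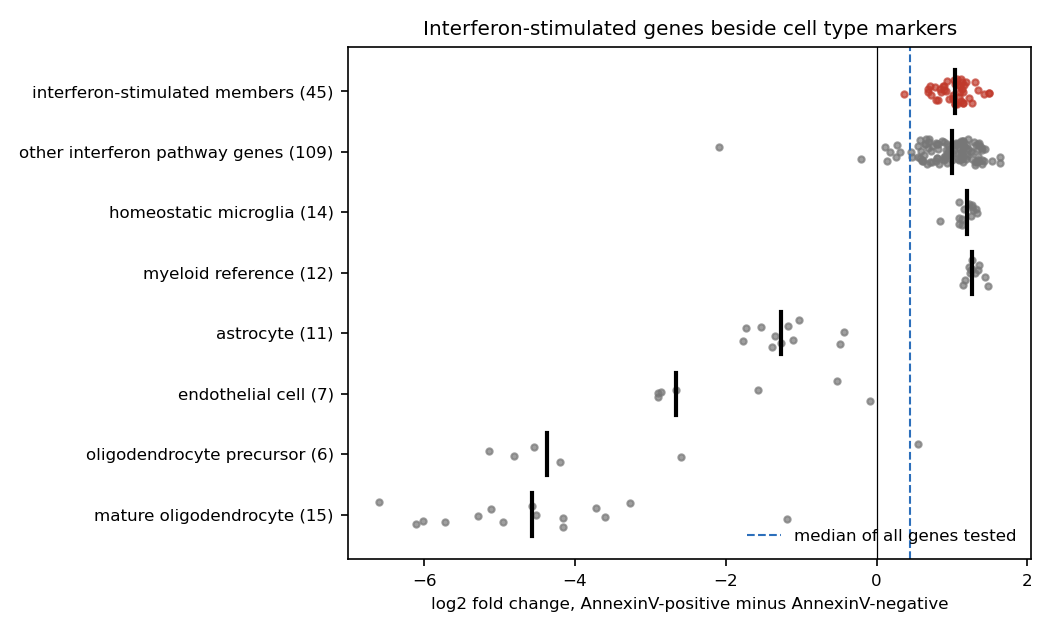
Log2 fold change (x axis, AnnexinV-positive minus AnnexinV-negative) of the tested genes of each list, with black bars at the list medians, numbers of genes in brackets and a dashed line at the median of all genes tested (0.45). The 45 members sit beside the microglia and myeloid lists, on the other side of 0 from the oligodendrocyte medians, although 5 of them are below 0 on the TPM scale.

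Relative to the microglia markers no member was called higher. With each library centred on the mean log2 value of the 14 homeostatic microglia markers, 0 of 45 members were higher and 1, Ifi44, was lower (limma; 0 and 1 also at an unadjusted p under 0.05), while 0.119% of all genes tested were called higher and 50.7% lower. The median of the members on this relative scale was -0.13, that of all genes tested -0.73. Members above 0 numbered 8, and 37 were below 0. In 2 members, Slfn2 and Ifi204, both AnnexinV-positive libraries stayed above both AnnexinV-negative ones (2.32% of all genes), and in 17 they lay below them (76.7% of all genes). These values set the members against the markers and inherit any change in the markers themselves. A missed call does not show equal levels per microglial cell: the 95% interval of Isg15 on this scale ran from -0.40 to 0.91, that of Irf7 from -0.58 to 0.53 and that of Rsad2 from -0.69 to 0.42. Over all 45 members no interval reached above 0.91 or below -1.46.

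**Figure D3:**
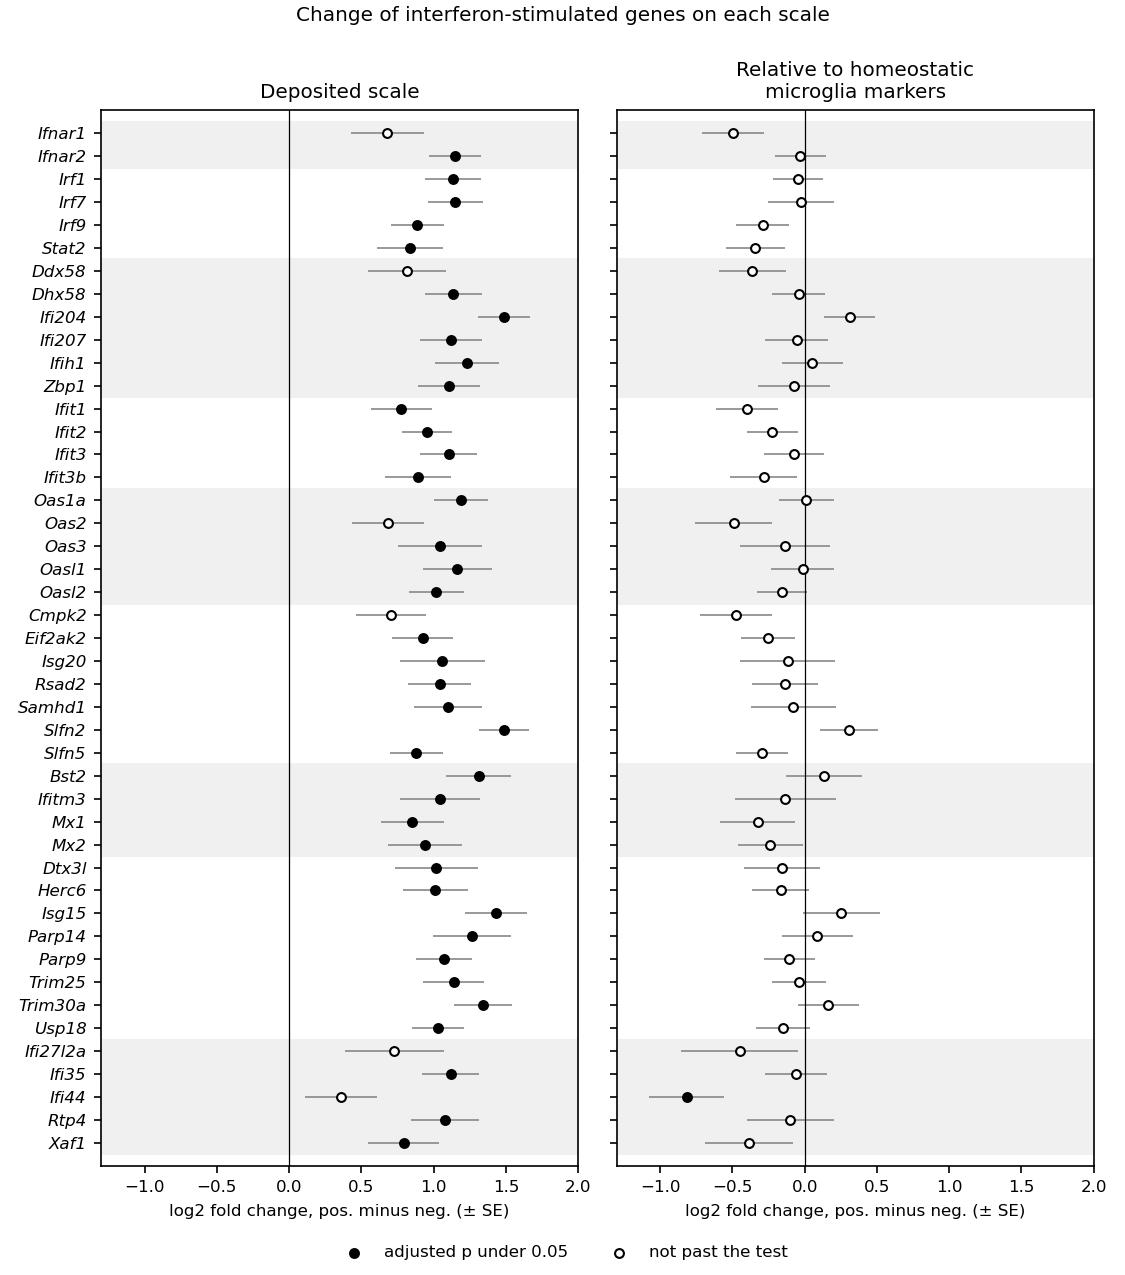
Log2 fold change with its SE for each member, AnnexinV-positive minus AnnexinV-negative, on the deposited scale (left) and with libraries centred on homeostatic microglia markers (right), shaded by role. Filled points passed the test, 39 on the left and Ifi44 on the right.

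Calls in the paragraphs on roles below are those of the deposited scale, where 30.8% of all genes tested were called higher. On the TPM scale Slfn2 and Ifi204 alone rose, and relative to the microglia markers 0 members were higher. Among the receptor chains, Ifnar2 rose and Ifnar1 did not pass the test. Ifnar2 had RPKM values of 30.6 and 33.6 against 13.4 and 15.5 (log2 fold change 1.15, SE 0.18, limma adjusted p 0.00489). Ifnar1 was at 16.6 and 14.2 against 7.58 and 12.1. The groups of Ifnar1 do not overlap, but AnnexinV-negative library 2 lies close to AnnexinV-positive library 2, and the log2 fold change was 0.68 (SE 0.25, limma adjusted p 0.0696) and -0.09 on the TPM scale. Both chains lie on chromosome 16, Ifnar2 at 91372783 to 91405589 and Ifnar1 at 91485238 to 91507441 (GRCm38), and 9.46% of the exon bases of Ifnar2 also belong to the gene model Gm21970.

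All 4 transcription factors of the list rose, beside 30.8% of all genes tested. Irf1, which both interferon types and other cytokines induce, had RPKM values of 74.9 and 73.4 against 29.7 and 38.3 and was the most abundant of these factors in each library. Irf7, the factor that amplifies the interferon response, was at 17.4 and 20.5 against 9.02 and 7.94 (log2 fold change 1.15, SE 0.19, limma adjusted p 0.00537). Its groups were well apart. Irf9, the DNA-binding part of ISGF3, was at 13.2 and 14.8 against 6.997 and 8.03, and Stat2 at 10.2 and 8.15 against 4.31 and 5.92. Their log2 fold changes were 0.89 and 0.84, and the smaller Stat2 change had an adjusted p of 0.0276 (limma).

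Of the 6 nucleic acid sensors 5 rose, beside 30.8% of all genes tested. Ifi204, a DNA-binding protein of the PYHIN family, had the largest log2 fold change of all members, 1.49 (SE 0.18, limma adjusted p 0.00226), from RPKM values of 5.87 and 6.69 to 18.3 and 17.2. The replicates of each group lay close together and the groups far apart. Its neighbour Ifi207 was at 30.2 and 21.7 against 11.2 and 12.3 (log2 fold change 1.12). The values of both are uncertain where reads are shared, since 20.02% of the 50-base words in the transcripts of Ifi204 and 7.29% of those of Ifi207 also occur in transcripts of other genes, mainly of the same family. Ifih1, the RNA sensor MDA5, rose from 1.64 and 1.96 to 4.89 and 3.86, and Dhx58, the related LGP2, from 4.27 and 5.29 to 10.1 and 11.1. Ddx58, the RNA sensor RIG-I, was at 6.92 and 5.88 against 2.76 and 4.63 and missed the threshold narrowly (log2 fold change 0.82, limma adjusted p 0.0505). Zbp1, a sensor of Z-form nucleic acid that can start necroptosis, rose by a log2 fold change of 1.11, from 4.35 and 3.88 to 7.77 and 10.3.

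The 4 IFIT genes, whose products bind viral RNA, all rose, by log2 fold changes of 0.78 to 1.10 (30.8% of all genes tested rose). They lie together on chromosome 19 between 34550694 (the start of Ifit2) and 34650009 (the end of Ifit1). Ifit2 was the most abundant, at an RPKM of 20.1 and 19.8 against 9.86 and 10.7. Ifit3 was at 13.3 and 16.8 against 6.58 and 7.27, and Ifit3b at 2.23 and 2.67 against 1.20 and 1.34. As copies, Ifit3 and Ifit3b share 51.2% and 45.003% of their 50-base transcript words with other genes, mainly with each other, so the split between them is uncertain. Ifit1 had the smallest change of the 4, from 3.25 and 3.64 to 5.23 and 6.80 (log2 fold change 0.78, SE 0.21, limma adjusted p 0.0271).

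The oligoadenylate synthetases make the activator of RNase L. The 3 genes of the family on the list that reached the RPKM minimum in every library were Oasl2, Oas1a and Oasl1. All 3 rose, beside 30.8% of all genes tested. Oasl2 was at an RPKM of 15.5 and 15.6 against 6.90 and 8.48, and Oas1a at 10.1 and 11.5 against 4.42 and 4.93, with log2 fold changes of 1.02 and 1.19. For Oas1a, 57.6% of the 50-base transcript words occur in other genes as well, mainly Oas1g and Oas1b. Oasl1, which encodes a repressor of Irf7 translation, went from 1.33 and 1.86 to 3.40 and 3.94. Oas3 and Oas2 were the 2 members under an RPKM of 1 in both AnnexinV-negative libraries, so they were tested only because of the group in which they are higher, and their tests are not read as support. Oas3 was at 1.13 and 1.04 against 0.437 and 0.514 (log2 fold change 1.04, limma adjusted p 0.0292, and 0.0531 with no filter). Oas2 was at 1.60 and 1.39 against 0.889 and 0.886 (log2 fold change 0.69, limma adjusted p 0.064).

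Effectors that act on nucleotides, RNA and translation rose in 6 of 7 genes, beside 30.8% of all genes tested. Slfn2, a schlafen family gene, was at an RPKM of 100.8 and 100.99 against 37.7 and 34.3. Slfn2 had the smallest p of the list (log2 fold change 1.49, SE 0.17, limma adjusted p 0.00194). Rsad2 (viperin), which makes a chain-terminating nucleotide, and Cmpk2, a nucleotide kinase, are neighbours on chromosome 12 (26442746 to 26456452 and 26469204 to 26479837). Rsad2 rose from 3.99 and 4.55 to 7.58 and 10.4 (log2 fold change 1.04). Cmpk2 was at 4.08 and 5.98 against 2.77 and 3.24 and did not pass (0.70, limma adjusted p 0.0553). The log2 fold changes of the others were 1.10 for Samhd1, which degrades deoxynucleotides, 1.06 for the exonuclease gene Isg20, 0.92 for Eif2ak2, the kinase PKR that halts translation, and 0.88 for Slfn5. Isg20 stood apart in AnnexinV-positive library 2, with 5.66 against 3.15 in library 1.

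All 4 genes of membrane and GTPase effectors rose, beside 30.8% of all genes tested. Bst2 (tetherin), which holds budding virus at the cell surface, was at an RPKM of 103 and 152 against 52.2 and 48.7 (log2 fold change 1.31, SE 0.23, limma adjusted p 0.00627). Ifitm3, which blocks virus fusion, was at 105 and 155 against 76.3 and 49.8 (log2 fold change 1.04, SE 0.28, limma adjusted p 0.0257). For both genes AnnexinV-positive library 2 stood well above library 1, and for neither did the groups overlap. The dynamin-like Mx1 and Mx2 were low, at 2.97 and 3.35 against 1.89 and 1.53 and at 2.59 and 2.62 against 1.07 and 1.59. GENCODE annotates Mx2 as a polymorphic pseudogene.

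All 8 genes of Isg15 conjugation, ubiquitin and ADP-ribose transfer rose on the deposited scale, beside 30.8% of all genes tested. Isg15 was at an RPKM of 32.8 and 40.03 against 15.4 and 11.7 (log2 fold change 1.43, SE 0.21, limma adjusted p 0.00408), the third largest change of the list. Usp18, which removes Isg15 from proteins and dampens signalling at Ifnar2, was at 16.5 and 18.8 against 8.24 and 8.96, and Herc6, the mouse ligase for Isg15, at 4.89 and 4.28 against 1.91 and 2.58. The log2 fold changes of Usp18 and Herc6, 1.03 and 1.01, were smaller than that of Isg15, and the differences were not tested. Trim30a and Trim25, ubiquitin ligases, had log2 fold changes of 1.34 and 1.14. Parp14, Dtx3l and Parp9 form a cluster on chromosome 16 (35832874 to 35972605) and rose by 1.26, 1.02 and 1.07. Dtx3l and Parp9, partners in 1 complex, share 458 exon bases, and their reads there cannot be told apart because the library kit does not keep strand.

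Of the other 5 members, Ifi35, Rtp4 and Xaf1 rose, with log2 fold changes of 1.12, 1.08 and 0.79. Xaf1 encodes an antagonist of the apoptosis inhibitor XIAP and was at an RPKM of 6.17 and 7.98 against 4.79 and 3.35. Ifi27l2a was the most abundant member in each of the 4 libraries and overlapped between groups, at 127 and 252 against 129 and 90.8 (log2 fold change 0.73, SE 0.34, limma adjusted p 0.127). AnnexinV-positive library 1 and AnnexinV-negative library 1 hardly differ for it. Ifi44 had the smallest change of the list, at 1.33 and 1.63 against 1.10 and 1.16 (log2 fold change 0.36, SE 0.25, limma adjusted p 0.265). It was also the member called lower relative to the microglia markers, by -0.82 (SE 0.26, limma adjusted p 0.0429). That call was lost with the replicate block, with a pseudocount of 0.01, and without any 1 of the libraries other than AnnexinV-negative replicate 2.

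**Figure D4:**
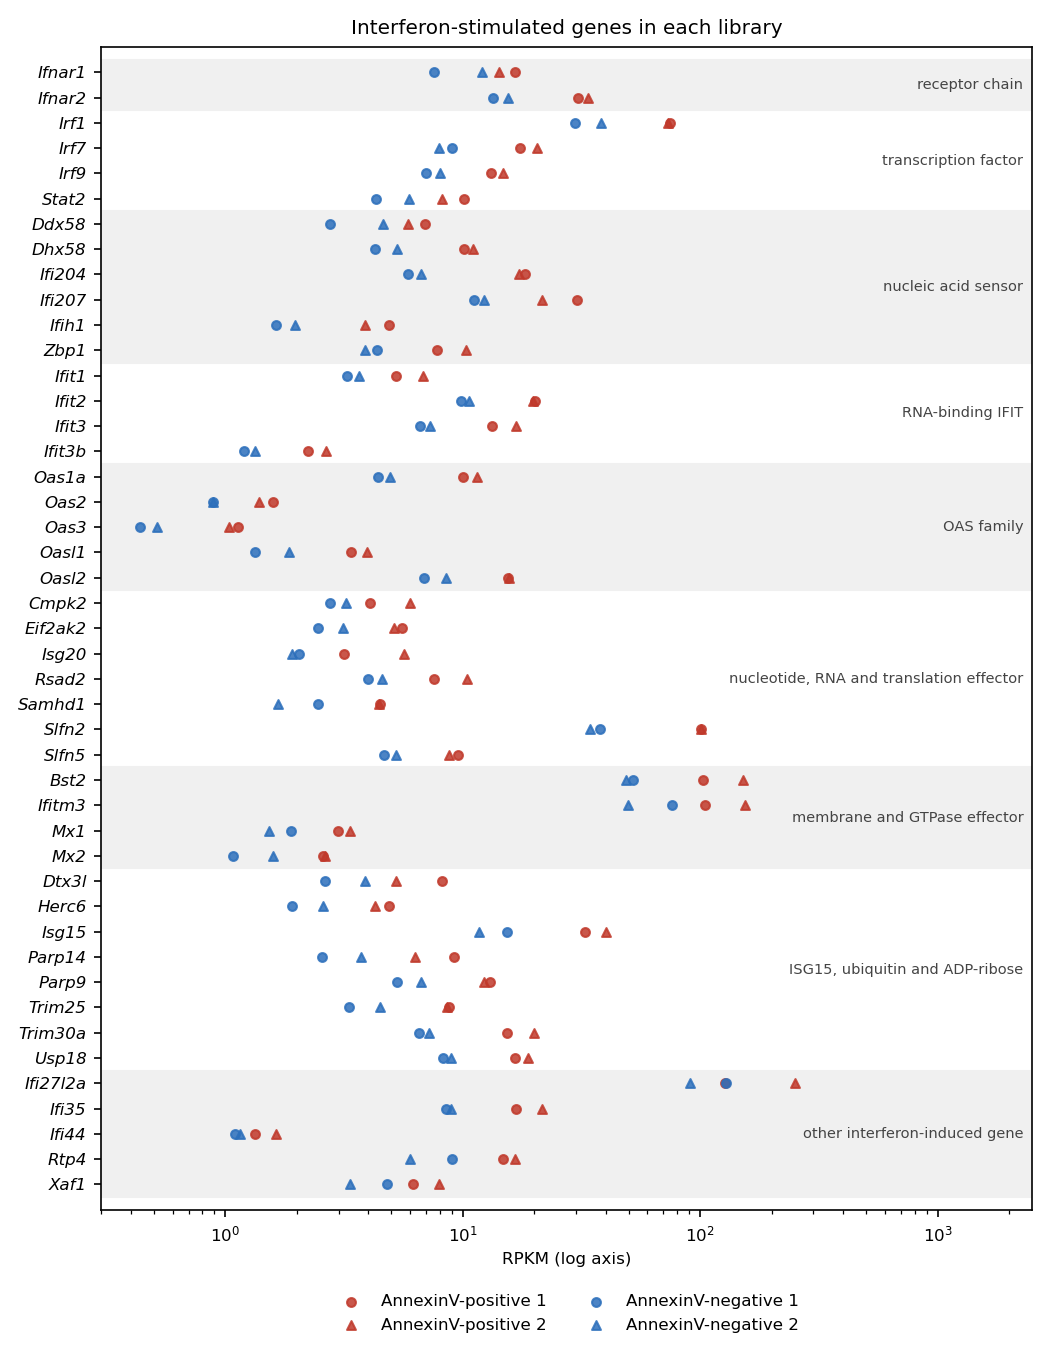
RPKM of each member (log axis) in the 4 libraries, AnnexinV-positive in red and AnnexinV-negative in blue, circles for replicate 1 and triangles for replicate 2, shaded by role. On this deposited scale red lies right of blue in every row except Ifi27l2a, which on the TPM scale holds for 25 members.

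The rest of the pathway was followed in a list of 164 other interferon genes, of which 163 were measured and 109 reached the RPKM minimum. Of these 86 rose, 1 fell and 22 did not pass (limma, deposited scale), with a median log2 fold change of 0.998. The shares of all genes tested were 30.8% higher and 9.26% lower, with a median of 0.45. Relative to the microglia markers 0 pathway genes were higher and 10 lower, with a median of -0.18. On that scale 0.119% of all genes tested were called higher and 50.7% lower, with a median of -0.73. The largest falls of pathway genes on that scale were those of Ly6a (-3.27), the phosphatase gene Ptpn11 (-1.38) and the GTPase gene Ifi47 (-1.07). Of the 21 interferon ligand genes, Ifnb1 alone reached the minimum. Ifnb1, the beta interferon, was at an RPKM of 2.05 and 1.502 against 1.45 and 1.33, from 152, 97, 131 and 97 reads. Its groups lie next to each other, and it did not pass the test (log2 fold change 0.31, SE 0.25, limma adjusted p 0.332). Relative to the microglia markers Ifnb1 was lower, by -0.86 (limma adjusted p 0.0402), near the median of -0.73 of all genes tested. Ifng was at 0.0837 and 0.0962 against 0.317 and 0.1196, and no alpha interferon gene exceeded an RPKM of 0.426 in a library.

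Of 8 tested genes for other receptor chains and for kinases and STAT proteins, 7 rose, beside 30.8% of all genes tested. Jak1 and Tyk2, the kinases of the type I receptor, rose by 0.998 and 1.09, Stat3 by 0.89, and the receptor chains Ifngr1, Ifngr2 and Il10rb by 1.27, 1.08 and 1.06. Jak2, the kinase of the interferon-gamma receptor, was at 7.01 and 5.66 against 5.15 and 5.36 and did not pass (0.26, limma adjusted p 0.313). Relative to the microglia markers Jak2 was lower, by -0.92, beside a median of -0.73 for all genes tested. Ifnlr1, the receptor chain for lambda interferons, was not tested, at 0.0145 and 0.00278 against 0.348 and 0.304. Genes that sense nucleic acids upstream of interferon rose in 20 of 22, with a median of 1.14, and negative regulators in 8 of 12, with a median of 0.72. On the TPM scale these medians were 0.40 and -0.02, beside -0.32 for all genes tested. Relative to the microglia markers they were -0.03 and -0.46, beside -0.73 for all genes tested. On that relative scale 0 genes of either list were called higher, with 0 sensing genes and 3 negative regulators lower (50.7% of all genes tested).

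The largest rises among these other genes were the chemokines Cxcl10 (log2 fold change 1.64) and Ccl12 (1.63) and the transcription factor Irf5 (1.54). Cxcl10 was at an RPKM of 100 and 123 against 38.6 and 32.7, above each of the 45 members but Bst2, Ifitm3, Ifi27l2a and Slfn2 in AnnexinV-positive library 1. The gene that fell was Ly6a, at 2.63 and 4.41 against 18.1 and 12.2 (log2 fold change -2.09, SE 0.30, limma adjusted p 0.00383). Ly6a encodes the surface protein Sca-1, which brain endothelial cells also express, and of 7 tested endothelial markers 5 fell in the same libraries. Their part in the fall of Ly6a was not tested.

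The replicates of a group differed by gene length in opposite ways. In the AnnexinV-positive group the log2 difference of replicate 2 minus replicate 1 fell with exonic length (Spearman's rho -0.66 across the 45 members, -0.45 across 10921 tested genes with a length). In the AnnexinV-negative group it rose (0.53 and 0.52). These are descriptions across genes of the same libraries. The 10 shortest members, of 463 to 2000 exonic bases, were all higher in AnnexinV-positive replicate 2, by a median of 0.35, and the 10 longest, of 5940 to 9306 bases, were higher there in 2 of 10, with a median of -0.16. In the AnnexinV-negative group the medians were -0.09 and 0.27. Ifi27l2a, the shortest member, differed by 0.99 within the AnnexinV-positive and by -0.50 within the AnnexinV-negative group. The group difference hardly followed length: its median was 1.11 in the 10 shortest and 1.01 in the 10 longest members.

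**Figure D5:**
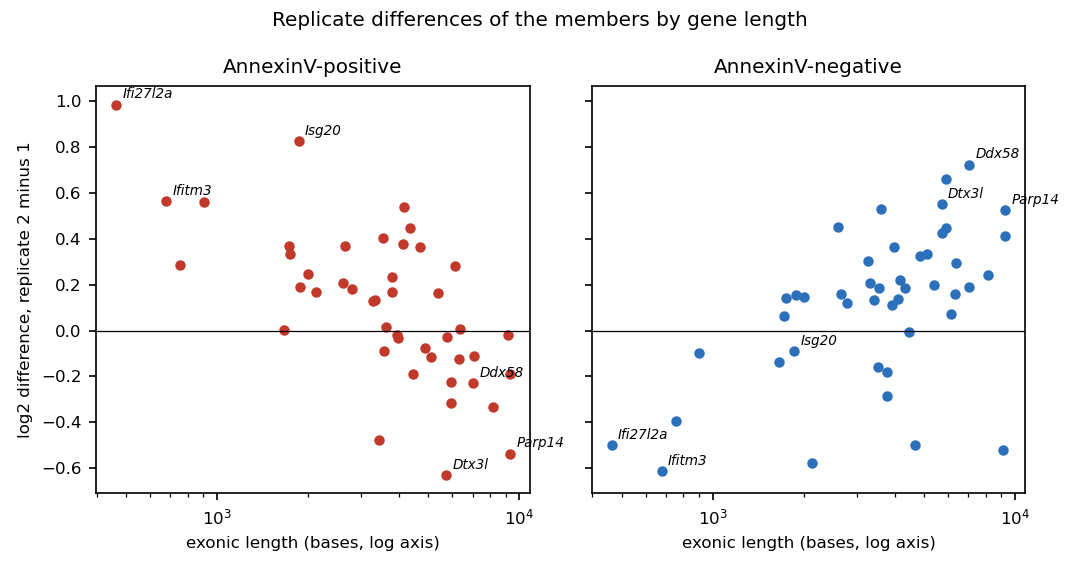
Log2 difference of replicate 2 minus replicate 1 (y axis, log2(RPKM + 0.1)) against exonic length in bases (log x axis) for the 45 members in each group. Points fall to the right in the AnnexinV-positive panel and rise to the right in the AnnexinV-negative panel.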

How the data were processed

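Bulk RNA-seq was run on total RNA with the TruSeq v2 kit, per the labels' protocols. GSNAP is the aligner and mm10 the build named, per the submitters' processing notes; counter, annotation and gene lengths: not given in the sources used here. The deposited values carry no unit and were read as RPKM computed by the authors, with a factor per library that did not follow its depth. Of low values, worth under 100 reads, 79.6% to 83.6% fell within 0.01 of whole reads when steps were scaled by GENCODE vM21 exonic length. Recovered reads served for depth and for the read numbers of genes given above, not for the fits. GENCODE gave symbols for 52489 genes. Genes reaching an RPKM of 1 in 2 libraries or more were fitted on log2(RPKM + 0.1) with limma 3.58.1 (R 4.3.3, intensity trend, no covariate). Fold changes on this scale understate those of low genes. A second fit centred libraries on 14 microglia markers. The fit was tested on simulated data with independent noise per gene and library, unlike the replicate differences by gene length described above. The members and lists were chosen with earlier results of these data known. All members may be named. Of other pathway genes, the rule took the 3 largest called changes each way, the receptor and JAK-STAT list and ligands by level. Of markers it took those near 0. Cox6a2, Pacsin1 and Klrb1c are not near 0 and were named after their values were seen. Alternatives covered pseudocount, filter, scale, trend, replicate block, reference markers and each library left out. All 4 libraries were used. The values of 1 pathway gene are not reported here.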

Additional observations from a re-analysis of the deposited data

How the results depend on the processing

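The 39 members called higher became 2 on the TPM scale, 21 with libraries centred on the median of the genes tested, and 22 to 39 with 1 library left out (22 without AnnexinV-positive replicate 2). Between 29 and 40 were called under the other planned settings, and 0 were called lower under any setting run. On the TPM scale the log2 fold changes of Ifi44 (-0.39), Ifnar1 (-0.0921), Cmpk2 (-0.0559), Ifi27l2a (-0.0498), Oas2 (-0.0321), Ifnb1 (-0.44) and Jak2 (-0.52) turned below 0, and that of Jak2 was -0.0563 when centred. The other 40 members stayed above 0 in every alternative. The 1 member lower relative to the microglia markers became 0 with a pseudocount of 0.01, 6 with a pseudocount of 1, 0 with the replicate block and 0 to 2 with 1 library left out. Isg15 on that scale ran from -0.0681 to 0.58 with 1 library left out, the lowest without AnnexinV-negative replicate 2. The 86 other pathway genes called higher became 3 on the TPM scale, 50 when centred and 51 to 87 with 1 library left out, and the 1 called lower became 2 on the TPM scale and 2 with no filter. All genes called, 4376, became 2204 on the TPM scale (113 higher, 2091 lower, against 3364 and 1012), 2317 when centred (1133 higher, 1184 lower) and 2084 to 4416 with 1 library left out. Whether equal replicate numbers mark a shared source is not stated. The deviations of same-numbered libraries correlated at -0.21 across all genes tested and at -0.58 across the 45 members. With the replicate block 37 members were higher, Ifit1 and Xaf1 being lost, and 3400 genes were called. A crossed replicate block, chosen after seeing the data, gave 43 members and 6027 genes. The cause of these shifts was not tested.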
